A study of Rattus norvegicus with 21 samples.

Results

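The subject was the difference between 2 inbred rat strains, Copenhagen (COP) and Brown Norway (BN), in the response of the anterior pituitary gland to diethylstilbestrol (DES), a synthetic estrogen. The difference was defined for each probe set as the change with DES in COP minus the change with DES in BN on the log2(signal + 16) scale, and 14 of the 21 arrays of the series entered it. The 4 groups were COP DES (4 arrays), COP control (3 arrays), BN DES (4 arrays) and BN control (3 arrays). All rats were males that received a Silastic implant when 9 weeks old, and the glands were taken at 21 weeks. The implant held 5 mg of DES in treated rats and was empty in controls, and every rat, control or treated, had been given BrdU, a label of DNA synthesis, at 50 mg/kg 4 hours before death. The remaining 7 arrays, from the ACI strain (4 DES, 3 control), were used only as side values. The arrays were Affymetrix Rat Genome 230 2.0 GeneChips, on which a probe set is a group of short oligonucleotides read together as 1 signal. Of the probe sets that were not controls, 436 carried several gene symbols. The series design counts 3 control and 4 treated biological replicates per strain, whereas the sample notes name 2 and 3 independent replicates, so the p values below measure only the spread between these arrays.

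The anterior pituitary holds lactotrophs, which make prolactin, somatotrophs, which make growth hormone, gonadotrophs, thyrotrophs and corticotrophs, together with folliculostellate cells, vessels and resident macrophages. Estrogens act on the gland through estrogen receptor alpha. They drive lactotrophs to divide and to secrete prolactin, and they suppress the gonadotropins. In highly responsive rat strains such as ACI, continuous estrogen produces gross lactotroph hyperplasia and prolactinoma, while the response of BN rats is restrained.

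Each array reported 31042 probe sets that were not Affymetrix controls, and its median signal lay between 127 and 151. The 40th percentile of an array, below which a signal was treated here as dim, lay between 74.2 and 90.6. Prl and Gh1, the hormone genes that define the tissue, had signals of 20519 or more on all 14 arrays. Arrays from BN DES rats varied more than the rest, with a median SD of 0.301 on the log2 scale against 0.228 in COP DES, 0.178 in COP control and 0.177 in BN control. The array BN control 3 had a 3′ to 5′ signal ratio of 7.24 for actin, a sign of shorter RNA, against 2.61 to 4.01 on the other 13 arrays, and BN DES 3 had the highest spike-in signal of the 14, 45950 against 16540 to 31460 on the other 13. Probe sets above that percentile on 3 or more of the 14 arrays were tested. That left 21052 probe sets, and 11478 genes when each gene was represented by its brightest probe set with 1 gene symbol.

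The response to DES differed between COP and BN in 560 of the 11478 genes (4.88%), at a Benjamini-Hochberg adjusted p under 0.05 in limma, and these calls were split between 301 genes with a difference above 0 (2.62%) and 259 with a difference below 0 (2.26%). The size of the difference was over 1 on the log2 scale in 341 of the 560 and over 2 in 65. Over probe sets the difference was called for 781 of 21052 (3.71%), of which 643 carried 1 gene symbol, 12 several and 126 none. DES changed 5452 genes in COP (47.5%), with 20.5% of all tested higher and 27% lower, and 4294 in BN (37.4%), with 15.8% higher and 21.6% lower. Over probe sets the shares were 41.4% in COP and 31.8% in BN. Of these, 3287 genes were called in both strains, which is 60.3% of the COP genes and 76.5% of the BN genes. The median difference over all probe sets was -0.03. Because every array had the same trimmed mean of 500, a value near 0 marks an equal response only relative to that common scale. In whole tissue, fewer cells of a type and less RNA per cell cannot be told apart, and this holds for each result below.

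Among the 301 genes with a difference above 0, 123 were higher with DES in both strains and more so in COP, 115 were higher in COP and not called in BN, and 29 were lower in BN and not called in COP. Another 28 were higher in COP and lower in BN, and 6 were lower in both. Among the 259 genes with a difference below 0, 109 were lower with DES in both strains, 89 were lower in COP and not called in BN, 28 were higher in BN and not called in COP, 17 were lower in COP and higher in BN, and 16 were higher in both. Over all 11478 genes, the changes in COP and in BN had a Pearson r of 0.80 and SDs of 0.92 in COP and 0.74 in BN. The genes share arrays and are not independent replicates.

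**Figure D1:**
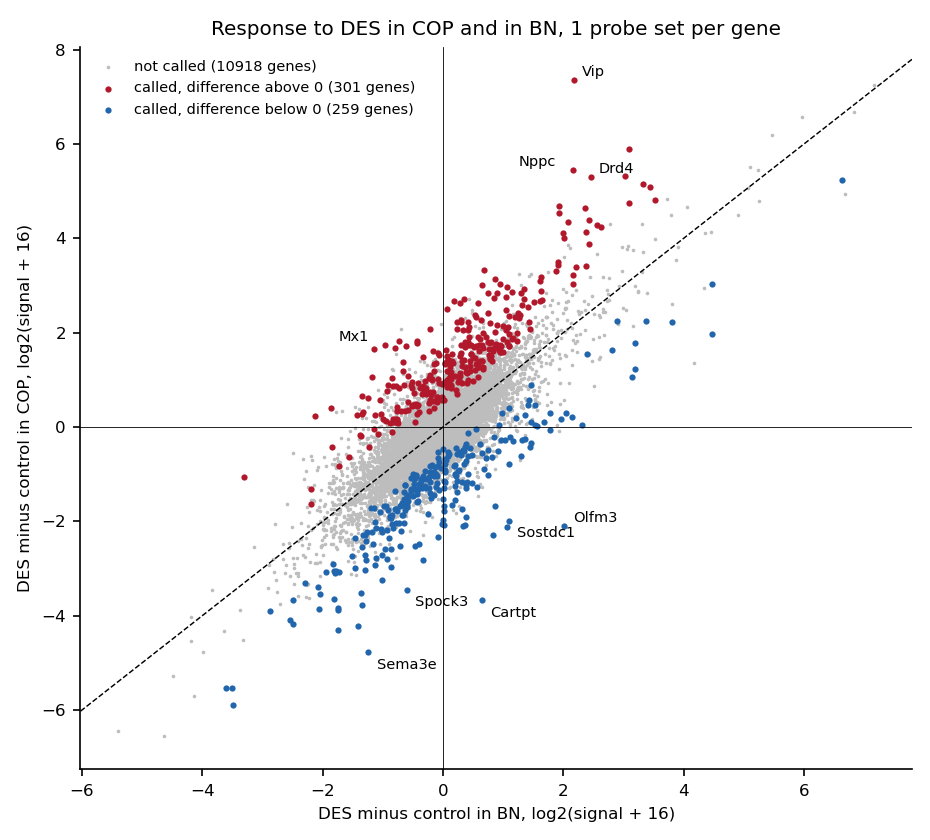
Change with DES in COP (vertical axis) against the change in BN (horizontal axis), each as DES minus control on the log2(signal + 16) scale, for 11478 genes, with the dashed line marking equal change. Red points are the 301 genes called with a difference above 0 and blue points the 259 called with a difference below 0; Vip and Cartpt lie farthest from the line.

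Neuropeptide genes held the largest difference of each sign. Vip encodes vasoactive intestinal peptide, which stimulates prolactin release, and Cartpt encodes the precursor of CART peptides, made in hypothalamus and pituitary. Their RefSeq promoters are shown because they belong to the extremes of the comparison, and that of Lhb, the luteinizing hormone beta gene discussed further on, because it is the hormone gene with the largest called difference. Each line gives the 250 bases before the annotated start on build GRCr8, 5′ to 3′ on the strand of the gene, with 2 kinds of motif in capitals. The first is the 6-letter estrogen receptor motif (AGGTCA or TGACCT), and the second is the core of the cAMP response element (TGACGT or ACGTCA), which was added after the values were seen.
Vip, chr1:44470230-44470479, plus strand: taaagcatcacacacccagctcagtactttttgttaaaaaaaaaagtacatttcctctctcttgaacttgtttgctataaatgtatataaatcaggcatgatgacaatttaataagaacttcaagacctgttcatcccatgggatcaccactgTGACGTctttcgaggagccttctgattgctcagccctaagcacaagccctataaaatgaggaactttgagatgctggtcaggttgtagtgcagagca
Cartpt, chr2:32991236-32991485, minus strand: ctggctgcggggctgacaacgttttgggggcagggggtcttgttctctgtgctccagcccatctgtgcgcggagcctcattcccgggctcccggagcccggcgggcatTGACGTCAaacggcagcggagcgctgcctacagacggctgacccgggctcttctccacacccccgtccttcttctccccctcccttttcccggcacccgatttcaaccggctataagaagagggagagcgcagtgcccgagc
Lhb, chr1:105037207-105037456, plus strand: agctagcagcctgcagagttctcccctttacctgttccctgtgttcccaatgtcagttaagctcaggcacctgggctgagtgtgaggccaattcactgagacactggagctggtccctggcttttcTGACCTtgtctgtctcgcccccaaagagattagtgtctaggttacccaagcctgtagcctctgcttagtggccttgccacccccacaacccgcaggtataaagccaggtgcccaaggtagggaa
The receptor motif in the Lhb promoter begins 124 bases before the start, and the cAMP core begins 97 bases before the start of Vip and 142 before that of Cartpt, where both strands match because the 8 letters TGACGTCA read the same on each. RefSeq promoters were matched to 9539 of the genes tested. The receptor motif was found on either strand in 10.4% of them and in 54 of the 457 promoters of called genes (11.8%), and the cAMP core in 10.8% of them and in 30 of those 457 (6.56%). The full palindrome of the estrogen response element, GGTCA and TGACC with 3 free bases between them, was in 0 of the 9539. A match marks letters only and is not evidence of a bound site.

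Vip was among the most strongly induced genes of the COP gland. Its signal was 11807, 12029, 10562 and 14205 on the COP DES arrays and 77.8, 40.3 and 59.9 on the COP control arrays. In BN it was 444, 384, 516 and 598 with DES and 87.0, 101 and 94.9 in controls. The DES arrays of COP all lay above those of BN. The COP controls lay below the BN controls without passing the test (-0.58, adjusted p = 0.108). The change was 164-fold in COP (log2 change 7.36) and 4.50-fold in BN (log2 change 2.17), and the difference in response was 5.19 (SE 0.25, limma adjusted p = 1.27e-08). Nppc, which encodes C-type natriuretic peptide, followed the same order, with 3548, 3061, 3394 and 2706 in COP DES and 59.0, 31.6 and 92.7 in COP control. In BN its signal was 719, 826, 407 and 612 with DES and 119, 107 and 160 in controls. DES and control arrays did not overlap in either strain, and the difference was 3.29 (SE 0.36, limma adjusted p = 9.99e-05). Gal, the galanin gene and a lactotroph growth factor, is given as a contrast chosen after its values were seen: it rose by 6.67 in COP and 6.84 in BN on the log2 scale, and its difference of -0.17 was not called (adjusted p = 0.793).

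Cartpt moved the other way. Its signal was 265, 366, 301 and 502 on COP DES arrays and 6965, 3153 and 4543 on COP control arrays. BN arrays gave 240, 302, 374 and 222 with DES and 157, 135 and 242 in controls. The COP control arrays stood above the other 11, and the DES arrays of the strains overlapped. The log2 change was -3.67 in COP and 0.64 in BN (adjusted p = 0.0833), and the difference was -4.32 (SE 0.38, adjusted p = 1.85e-05). Guca2b, which encodes uroguanylin, an activator of guanylate cyclase C, was induced more in BN. It gave 3293, 2687, 3012 and 2201 in COP DES and 54.2, 50.6 and 70.4 in COP control. The BN values were 7113, 6184, 6649 and 7517 with DES and 51.9, 65.2 and 45.1 in controls, and the difference was -1.39 (SE 0.22, adjusted p = 0.00154). Of the 14 neuropeptide genes tested, 2 were called above 0 and 3 below, against 2.62% and 2.26% of all genes. The remaining call was Calcb, a calcitonin gene-related peptide gene named here to complete the count, at -1.97 (adjusted p = 0.0106). The median difference of these 14 was -0.74, against -0.02 over all genes.

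**Figure D2:**
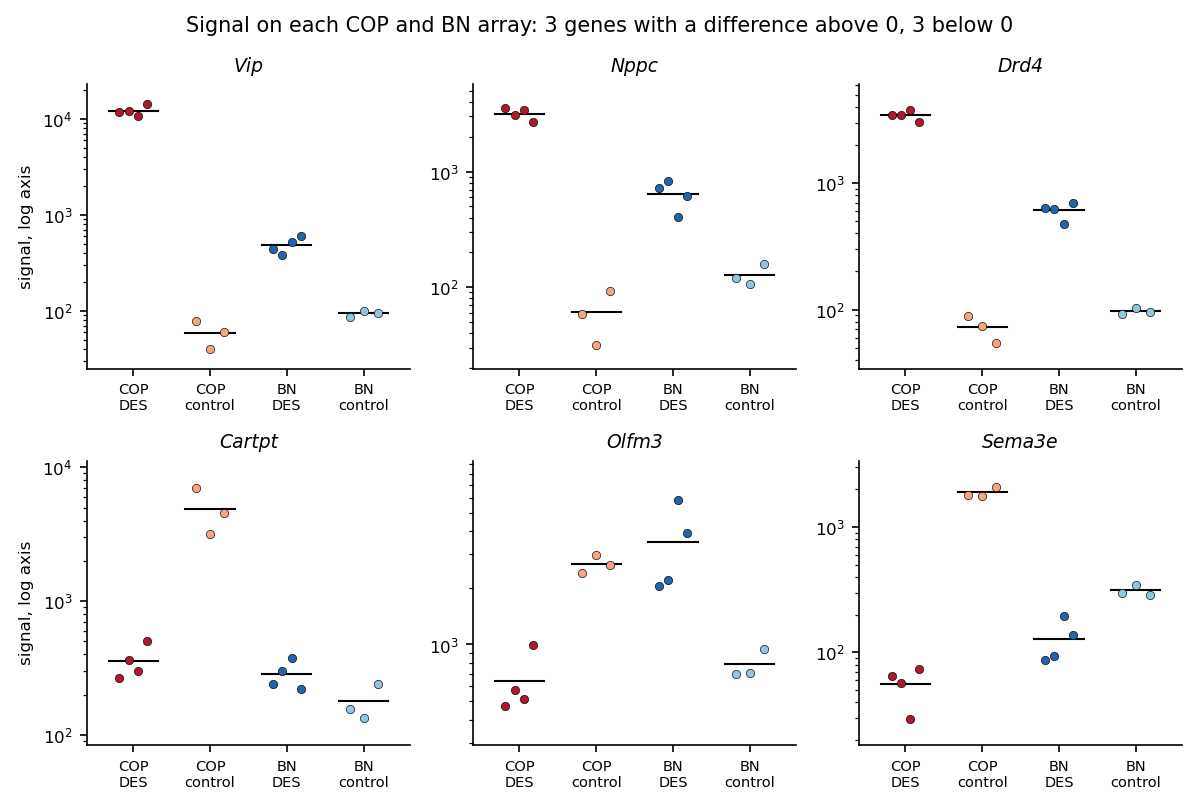
Signal on a log axis on each array of COP DES, COP control, BN DES and BN control, for Vip, Nppc and Drd4, whose difference was above 0, and Cartpt, Olfm3 and Sema3e, whose difference was below 0. Points are arrays and bars are group means; Cartpt reached 3153 or more on the COP control arrays and 502 or less elsewhere.

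Receptor genes for dopamine, thyrotropin-releasing hormone and angiotensin also differed. Drd4 encodes the D4 dopamine receptor. Its signal was 3475, 3430, 3757 and 3049 in COP DES and 89.1, 73.8 and 54.7 in COP control, against 641, 624, 473 and 699 in BN DES and 92.6, 103 and 96.3 in BN control. All COP DES arrays lay above all BN DES arrays, and the difference was 2.85 (SE 0.23, limma adjusted p = 1.06e-05), with 2 further Drd4 probe sets also called above 0 (1.42 and 2.77). Drd2, the D2 receptor through which dopamine restrains lactotrophs, is named for comparison and had a difference of 0.48 that was not called (adjusted p = 0.377). Agtr1b, the main pituitary receptor for angiotensin II, fell in both strains and further in COP. It gave 65.7, 70.8, 84.3 and 71.1 in COP DES and 5274, 5865 and 4613 in COP control, against 209, 267, 292 and 214 in BN DES and 3302, 2686 and 2697 in BN control. On the log2 scale the change was -5.88 in COP and -3.48 in BN, and the difference was -2.40 (SE 0.21, adjusted p = 1.7e-05). For Agtr1a, the closely related receptor, the difference was -1.10 (SE 0.23, adjusted p = 0.0149), while its second probe set was not called (-0.77, adjusted p = 0.545). Of 15 further probe sets of the called named genes, 14 had the sign of the first and 6 were called with it.

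Trhr, the receptor for thyrotropin-releasing hormone on lactotrophs and thyrotrophs, was changed in BN. Its signal was 1801, 1999, 2226 and 2408 in COP DES and 1942, 2656 and 2984 in COP control, with overlap. In BN it was 5850, 5309, 8700 and 7834 with DES and 2630, 2294 and 3002 in controls, without overlap. DES changed the log2 signal by -0.25 in COP (adjusted p = 0.297) and 1.36 in BN (adjusted p = 2.82e-05), and the difference was -1.61 (SE 0.25, adjusted p = 0.0017). Of 15 receptors tested in this list, 1 was called above 0 and 3 below, all named here, against 2.62% and 2.26% of all genes, with a median difference of -0.27.

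Of the hormone genes, Lhb and Tshb had a called difference, and Fshb was called on 1 of its probe sets. Lhb encodes the beta subunit of luteinizing hormone. Its signal was 352, 355, 388 and 331 in COP DES and 16732, 18077 and 17100 in COP control. In BN it was 1329, 1095, 921 and 1203 with DES and 16832, 12337 and 13067 in controls. The controls of the strains overlapped and the DES arrays did not, with all 4 of BN above all 4 of COP. The fall was -5.54 in COP and -3.61 in BN on the log2 scale, and the difference was -1.93 (SE 0.18, adjusted p = 3.38e-05). Fshb, the beta subunit of follicle-stimulating hormone, had 191, 144, 50.7 and 162 in COP DES and 12237, 13668 and 11151 in COP control, against 267, 233, 187 and 220 in BN DES and 12365, 9063 and 9347 in BN control. The difference for this probe set was -1.06 (95% interval -1.89 to -0.23, adjusted p = 0.166), and a second Fshb probe set, less bright on average, was called at -0.77 (adjusted p = 0.0236). On arrays numbered 1 and 2 alone the first probe set was called (-0.84, limma adjusted p = 0.0343). That setting called 1431 probe sets against 781 in the main fit. In each of the 14 omissions of 1 array the first probe set stayed uncalled.

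Tshb, the beta subunit of thyroid-stimulating hormone, fell in COP. It gave 6758, 9738, 9634 and 10963 in COP DES and 28874, 29475 and 27792 in COP control. The BN values were 26142, 22796, 41134 and 30434 with DES and 25791, 27052 and 26729 in controls. COP DES arrays all lay below the rest, and BN DES arrays lay on both sides of their controls. The log2 change with DES was -1.65 in COP (adjusted p = 1.52e-06) and 0.15 in BN (adjusted p = 0.556), and the difference was -1.80 (SE 0.25, adjusted p = 0.000531).

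Prl, Gh1 and Cga, the genes of prolactin, growth hormone and the glycoprotein hormone alpha subunit, were close to the brightest values of each array. Prl gave 40160, 46250, 51777 and 52575 in COP DES and 29653, 31742 and 31354 in COP control, against 35967, 36523, 68841 and 53748 in BN DES and 27024, 26121 and 29679 in BN control. Its difference was -0.15 (95% interval -0.70 to 0.40, adjusted p = 0.831). The difference was -0.38 for Gh1 (95% interval -0.89 to 0.12, adjusted p = 0.459) and -0.33 for Cga (95% interval -0.85 to 0.19, adjusted p = 0.554). With quantile normalization the Cga difference was called at -0.28 (limma adjusted p = 0.0325). It stayed uncalled with median centring and in each of the 14 omissions of 1 array. The bacteriophage cre spike-in, which is added to every sample in equal amount, was itself higher on DES arrays by 0.56 in COP and 0.68 in BN on the log2 scale, and its part in the changes of these bright genes was not tested. Pomc, the corticotroph hormone precursor, had signals between 8.5 and 373, and its difference of -1.18 was not called (adjusted p = 0.402).

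**Figure D3:**
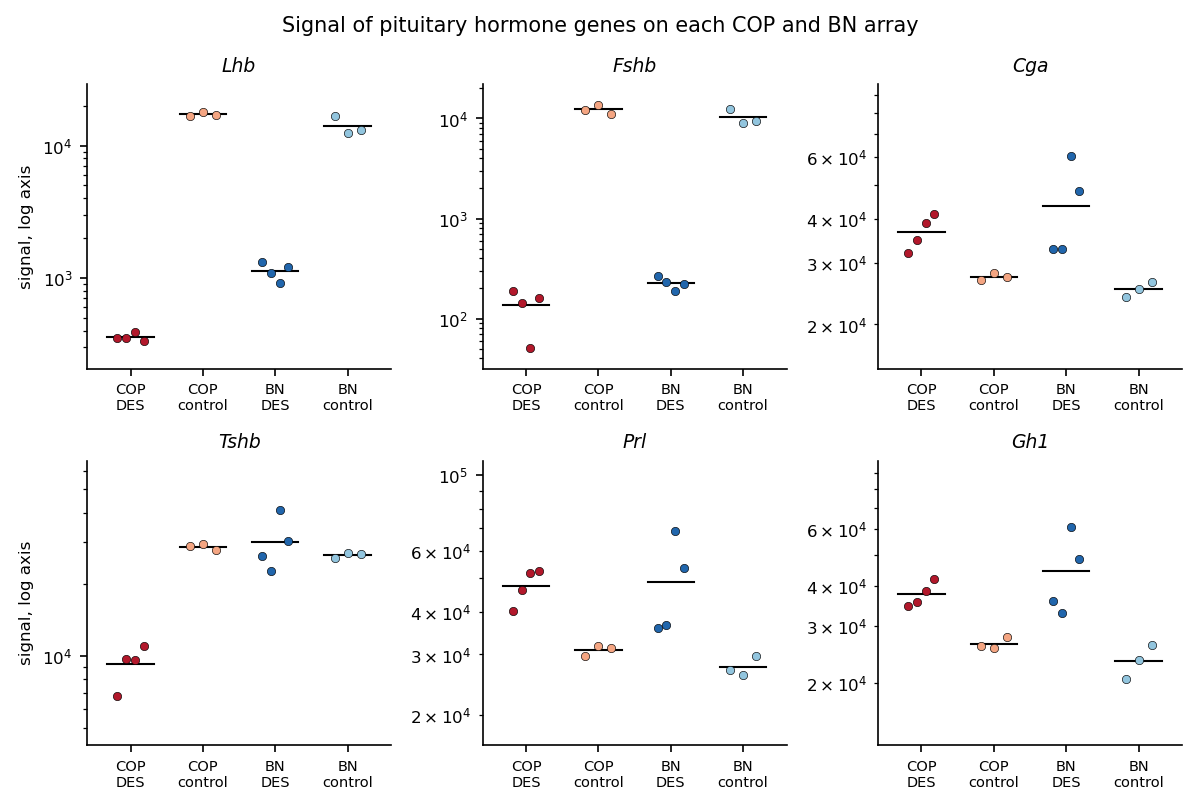
Signal on a log axis of Lhb, Fshb, Cga, Tshb, Prl and Gh1 on each array of COP DES, COP control, BN DES and BN control. Points are arrays and bars are group means; the COP DES arrays are lowest for Lhb (331 to 388) and Tshb (6758 to 10963), while for Prl and Gh1 the DES arrays of the strains overlap.

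The called transcription factors of pituitary lineages all had a difference below 0. Gata2, which specifies gonadotrophs and thyrotrophs, gave 155, 149, 121 and 118 in COP DES and 923, 1275 and 1189 in COP control, against 320, 330, 401 and 306 in BN DES and 1345, 1077 and 1335 in BN control. Every COP DES array lay below every BN DES array, and the difference was -1.07 (SE 0.22, adjusted p = 0.0115). Neurod1, a basic helix-loop-helix factor of corticotroph development, was 248, 264, 301 and 287 in COP DES and 252, 298 and 510 in COP control. It was 779, 706, 801 and 744 in BN DES and 357, 275 and 482 in BN control, and the difference was -1.31 (adjusted p = 0.02). That call was lost without BN control 1 or BN control 2, where the adjusted p reached 0.06. Tbx19, which activates Pomc in corticotrophs, had a difference of -1.26 (adjusted p = 0.0384) and lost its call in 9 of the 14 omissions of 1 array. Of the 10 lineage factors tested, 3 were called, against 2.26% called below 0 over all genes, and 6 were lower in COP than in BN after DES, against 12% of all genes; leaving out BN control 1 or BN control 2 left 1 call.

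In the gonadotroph list 2 of 10 genes were called, both below 0, with a median of -0.62, and in the thyrotroph list 3 of 6, all below 0, with a median of -1.24, against 2.26% of all genes called below 0. Both lists hold Gata2. Among the 10 lactotroph markers, Agtr1b, Trhr and Calb1 were called below 0 and the median was -0.42. In controls 4 of these 10 were higher in COP than in BN and 1 lower, against 258 and 316 of all 11478 genes, with a median of 0.74. After DES 2 were higher and 3 lower, against 11.2% and 12% of all genes, with a median of 0.02. The gonadotroph and thyrotroph lists had strain medians of -0.01 and 0.06 in controls and -0.73 and -1.28 after DES. Calb1, which encodes the calcium buffer calbindin, gave 381, 386, 441 and 366 in COP DES and 342, 313 and 301 in COP control, against 349, 355, 458 and 297 in BN DES and 77.1, 80.3 and 130 in BN control. BN DES arrays overlapped the COP controls, and the difference was -1.49 (SE 0.26, adjusted p = 0.00361). Aldh1a1, a retinaldehyde dehydrogenase of pituitary stem cells, gave 284, 258, 307 and 310 in COP DES and 6422, 5390 and 4894 in COP control, against 1392, 1227, 1121 and 1062 in BN DES and 7125, 6579 and 6718 in BN control. The fall was -4.18 in COP and -2.50 in BN on the log2 scale, and the difference was -1.69 (SE 0.17, adjusted p = 5.78e-05). It was the 1 call among 7 folliculostellate and stem cell genes, against 2.26% of all genes called below 0. Of these 7, 4 had a difference above 0, against 5494 of all 11478 genes, and their median was 0.01.

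Mki67, a marker of dividing cells, was higher with DES in COP and lower in BN. Of 28 cell cycle genes tested, 14 were higher and 3 lower with DES in COP, against 3 higher and 4 lower in BN. Over all genes 20.5% were higher and 27% lower in COP, and 15.8% higher and 21.6% lower in BN. The difference was above 0 in 23 of the 28, against 5494 of all 11478 genes. It was called in 3, Mki67, Ccnb2 and Cdk1, against 2.62% called above 0 over all genes, and the median difference was 0.76. The signal of Mki67, which encodes the nuclear protein Ki-67, was 297, 298, 359 and 382 in COP DES and 107, 79.2 and 97.1 in COP control. BN arrays gave 143, 150, 88.0 and 73.8 with DES and 242, 119 and 278 in controls. COP DES arrays lay above all others, and BN DES arrays overlapped the lowest BN control. The log2 change was 1.66 in COP (adjusted p = 0.000142) and -0.79 in BN (adjusted p = 0.0374), and the difference was 2.46 (SE 0.39, adjusted p = 0.00174).

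Ccnb2, a mitotic cyclin, gave 403, 361, 283 and 371 in COP DES and 116, 87.5 and 93.9 in COP control, against 156, 149, 182 and 215 in BN DES and 130, 105 and 117 in BN control. Its difference was 1.17 (SE 0.26, adjusted p = 0.0206). Cdk1, the kinase that cyclin B activates, had a difference of 0.94 (adjusted p = 0.0459). The Ccnb2 call was lost without COP control 2 or BN control 1 (adjusted p up to 0.0645) and that of Cdk1 in 12 of the 14 omissions, so that 1 of the 28 genes stayed called without COP control 2 or BN control 1. Ccnd1, the G1 cyclin, had a difference of -0.64 that was not called (adjusted p = 0.188). Odc1, the MYC target that starts polyamine synthesis, gave 7248, 8334, 7633 and 8485 in COP DES and 3614, 3767 and 3275 in COP control, against 5227, 5335, 5762 and 5378 in BN DES and 3789, 3986 and 4737 in BN control. Its difference was 0.77 (SE 0.14, adjusted p = 0.00587). Ldha, a lactate dehydrogenase gene of the same list of MYC targets, was called below 0 (-0.57, adjusted p = 0.0209). The list thus held 1 call of each sign in 17 genes, against 2.62% of all genes called above 0 and 2.26% below. Myc itself was induced in both strains, with 885, 654, 630 and 618 in COP DES and 153, 135 and 71.0 in COP control, against 774, 914, 501 and 452 in BN DES and 78.6, 103 and 79.3 in BN control. The difference for Myc was -0.23 (95% interval -1.01 to 0.55, adjusted p = 0.818). Pvt1, its noncoding neighbor, had a difference of 0.01 (95% interval -0.87 to 0.89, adjusted p = 0.994). A1bg, another gene of the Ept7 locus for estrogen-induced pituitary growth, did not pass the signal filter.

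Of 19 genes of the endoplasmic reticulum, which folds secreted hormones, 16 were higher and 1 lower with DES in COP, against 20.5% and 27% of all genes, and 14 were higher and 1 lower in BN, against 15.8% and 21.6%. The gene lower in both was Ddit3, which encodes the stress factor CHOP. The difference was above 0 in 15 of the 19, against 5494 of all 11478 genes, and called above 0 in 4, against 2.62% of all genes. Dnajc3, a co-chaperone that restrains the stress kinase PERK, gave 9571, 9207, 11836 and 11069 in COP DES and 2696, 2934 and 2927 in COP control, against 4024, 4189, 5245 and 5415 in BN DES and 2374, 2129 and 2556 in BN control. The difference was 0.87 (SE 0.18, adjusted p = 0.0119). For Manf, a secreted factor of the same stress response, it was 0.67 (SE 0.13, adjusted p = 0.00767). The calls of Atf4 and Creld2 (0.48 and 0.68) were lost in 10 and 11 of the 14 omissions, which left 2 calls in 9 of them.

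**Figure D4:**
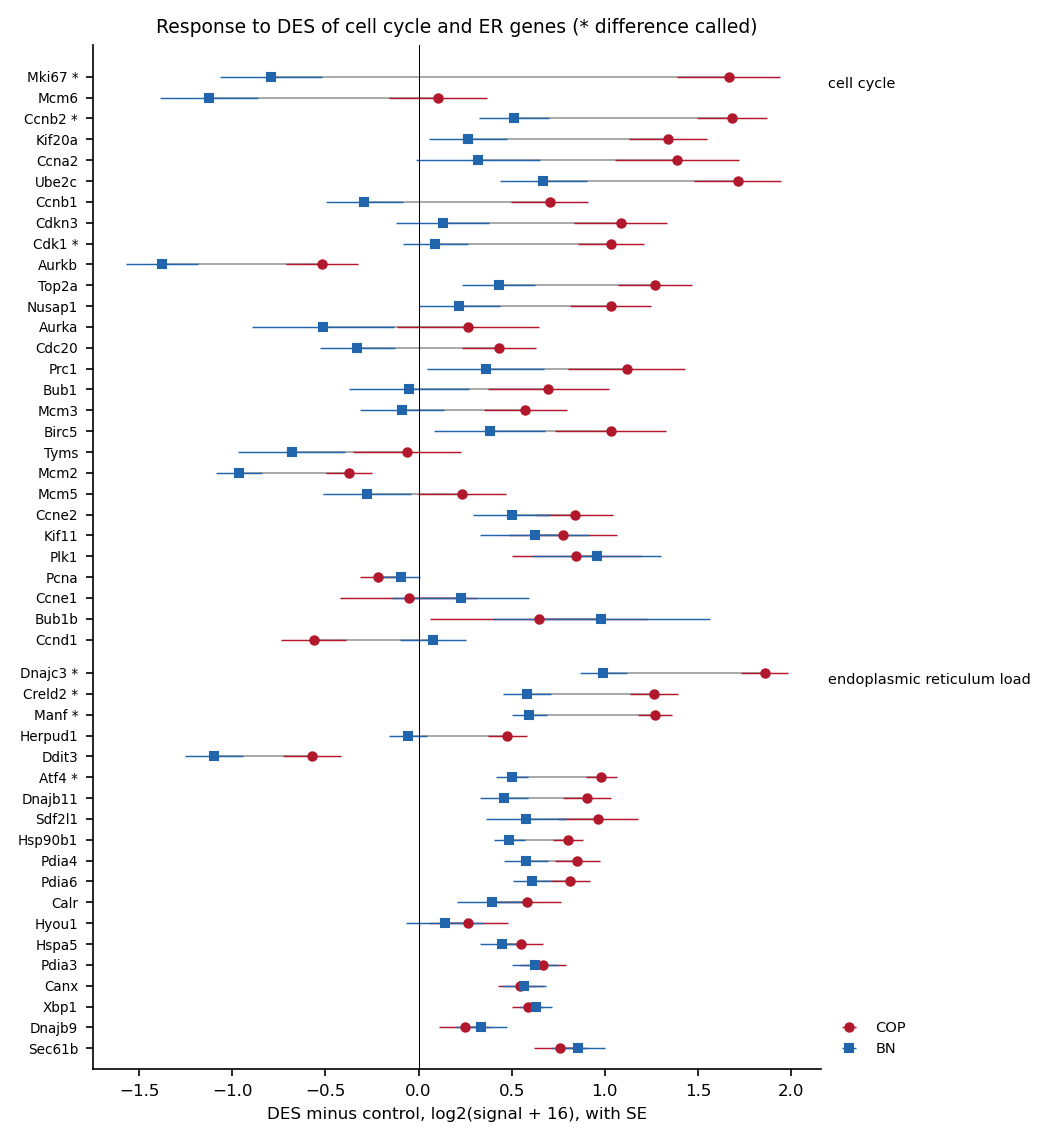
Change with DES in COP (red circles) and in BN (blue squares), on the log2(signal + 16) scale with standard errors, for the tested members of the cell cycle and endoplasmic reticulum lists. Stars mark the 3 and 4 genes whose difference was called; for Mki67 the changes lie on opposite sides of 0.

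Mzb1, a chaperone best known from B and plasma cells, had a large difference that the markers of those cells did not share. Its signal was 4331, 3635, 2914 and 3218 in COP DES and 28.5, 40.4 and 64.1 in COP control. BN arrays gave 566, 423, 618 and 979 with DES and 52.2, 56.7 and 66.3 in controls. On the log2 scale the change was 5.90 in COP and 3.10 in BN, and the difference was 2.81 (SE 0.35, adjusted p = 0.000235). Of the other B and plasma cell markers, Jchain and Xbp1 were tested and were not called (differences of -0.41 and -0.04), and the summed signal of the 3 was 17670 to 18580 in COP DES, 9544 to 9873 in COP control, 12950 to 14950 in BN DES and 8336 to 9176 in BN control, most of it Xbp1.

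Macrophage genes formed the list with the most calls. Of its 13 tested members 9 had a called difference, each above 0, against 2.62% of all genes, and the median difference was 1.44. With DES 12 were higher in COP and 5 in BN, against 20.5% and 15.8% of all genes. The genes for complement C1q, made in large amounts by tissue macrophages, moved together. C1qc gave 1901, 2162, 2023 and 2553 in COP DES and 260, 278 and 324 in COP control, against 1038, 835, 1250 and 1378 in BN DES and 629, 559 and 564 in BN control. COP controls lay below BN controls and COP DES arrays lay above BN DES arrays, and the difference was 1.94 (SE 0.22, adjusted p = 0.000149). For C1qb and C1qa the differences were 1.90 (SE 0.25, adjusted p = 0.000419) and 1.72 (SE 0.31, adjusted p = 0.00441).

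Laptm5, a lysosomal protein of blood-derived cells, gave 858, 707, 715 and 1351 in COP DES and 145, 111 and 110 in COP control, against 353, 365, 389 and 633 in BN DES and 279, 276 and 459 in BN control. BN DES and BN control arrays overlapped, and the difference was 2.36 (SE 0.36, adjusted p = 0.00119). Cd68, a glycoprotein of macrophage lysosomes, gave 414, 455, 344 and 470 in COP DES and 103, 108 and 90.9 in COP control, against 240, 188, 196 and 178 in BN DES and 132, 130 and 171 in BN control. Its difference was 1.46 (SE 0.25, adjusted p = 0.00294). The other called members were Csf1r, the receptor that maintains macrophages, the pan-leukocyte marker Ptprc, Aif1 and Fcer1g, named to complete the count. Summed over the 13 genes the signal was 17350 to 24210 in COP DES, 7733 to 8455 in COP control, 10150 to 19360 in BN DES and 7375 to 9577 in BN control. Taken singly, 6 of the 13 were lower in COP controls than in BN controls, against 316 of all 11478 genes, with a median of -0.90. After DES 6 were higher in COP than in BN, against 11.2% of all genes, with a median of 0.65. The called differences in this list thus lay partly in the controls. The 4 members not called included Lyz2, lower with DES in COP, and Cd14. Leaving out BN control 3 and BN DES 3 gave 6 calls in this list.

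C3, the central complement component, differed in the controls rather than after DES. Its signal was 1289, 1939, 1773 and 2276 in COP DES and 217, 330 and 384 in COP control. In BN it was 1494, 1481, 1048 and 1455 with DES and 1528, 901 and 1558 in controls. DES changed the log2 signal by 2.50 in COP and 0.07 in BN (adjusted p = 0.849), and the difference was 2.43 (SE 0.33, adjusted p = 0.000443). Control arrays of COP all lay below those of BN (-2.04, adjusted p = 8.92e-05), and DES arrays overlapped. In ACI rats the change was -0.03, with 955, 371, 449 and 261 in ACI DES and 451, 518 and 421 in ACI control. With the C1q genes, 4 of 8 complement genes tested were called above 0, against 2.62% of all genes.

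Cd74, RT1-Bb and RT1-Da, genes of class II antigen presentation, were higher with DES in COP and lower in BN. Cd74, the invariant chain that guides class II molecules, gave 4631, 4301, 3302 and 5792 in COP DES and 2475, 2473 and 2495 in COP control, against 2712, 2732, 3351 and 4265 in BN DES and 5701, 4847 and 5506 in BN control. DES arrays lay above controls in COP and below them in BN. The log2 change with DES was 0.83 in COP (adjusted p = 0.00102) and -0.73 in BN (adjusted p = 0.00393), and the difference was 1.56 (SE 0.24, adjusted p = 0.00155). RT1-Bb, a rat class II beta chain, gave 1802, 1641, 973 and 1715 in COP DES and 864, 823 and 719 in COP control, against 344, 329, 477 and 585 in BN DES and 858, 664 and 917 in BN control. Controls of the strains overlapped, DES arrays did not, and the difference was 1.79 (SE 0.31, adjusted p = 0.00364). RT1-Da and RT1-DMa were called at 1.70 and 1.15. Each of these lost its call without BN control 3 and also without 1 COP control (replicate 2 for RT1-Da, replicate 3 for RT1-DMa), with adjusted p up to 0.0564 and 0.0654, so that the list of 15 genes held 4 calls above 0, against 2.62% of all genes, and 2 without BN control 3. RT1 genes vary in sequence between strains and resemble each other, so that probe sets may read them unequally, and this was not tested.

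Of 18 interferon-induced genes tested, 3 were called above 0, against 2.62% of all genes, and the median was 0.47. Mx1, an antiviral GTPase, gave 415, 405, 332 and 353 in COP DES and 81.0, 104 and 124 in COP control, against 76.7, 93.8, 178 and 327 in BN DES and 254, 282 and 372 in BN control. The log2 change was 1.73 in COP and -0.97 in BN (adjusted p = 0.0367), and the difference was 2.70 (SE 0.47, adjusted p = 0.00381). BN DES 4, at 327, lay within the range of the BN controls. Gbp2, a guanylate-binding protein, gave 591, 564, 511 and 414 in COP DES and 261, 215 and 261 in COP control, against 292, 285, 390 and 432 in BN DES and 578, 507 and 858 in BN control. Its difference was 1.87 (SE 0.28, adjusted p = 0.00107). Irf7, which switches on interferon genes, fell in BN (-1.32, adjusted p = 0.000223), was not called in COP (0.32, adjusted p = 0.265), and had a difference of 1.64 (SE 0.31, adjusted p = 0.0059). Without BN DES 4 the count in this list was 6.

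**Figure D5:**
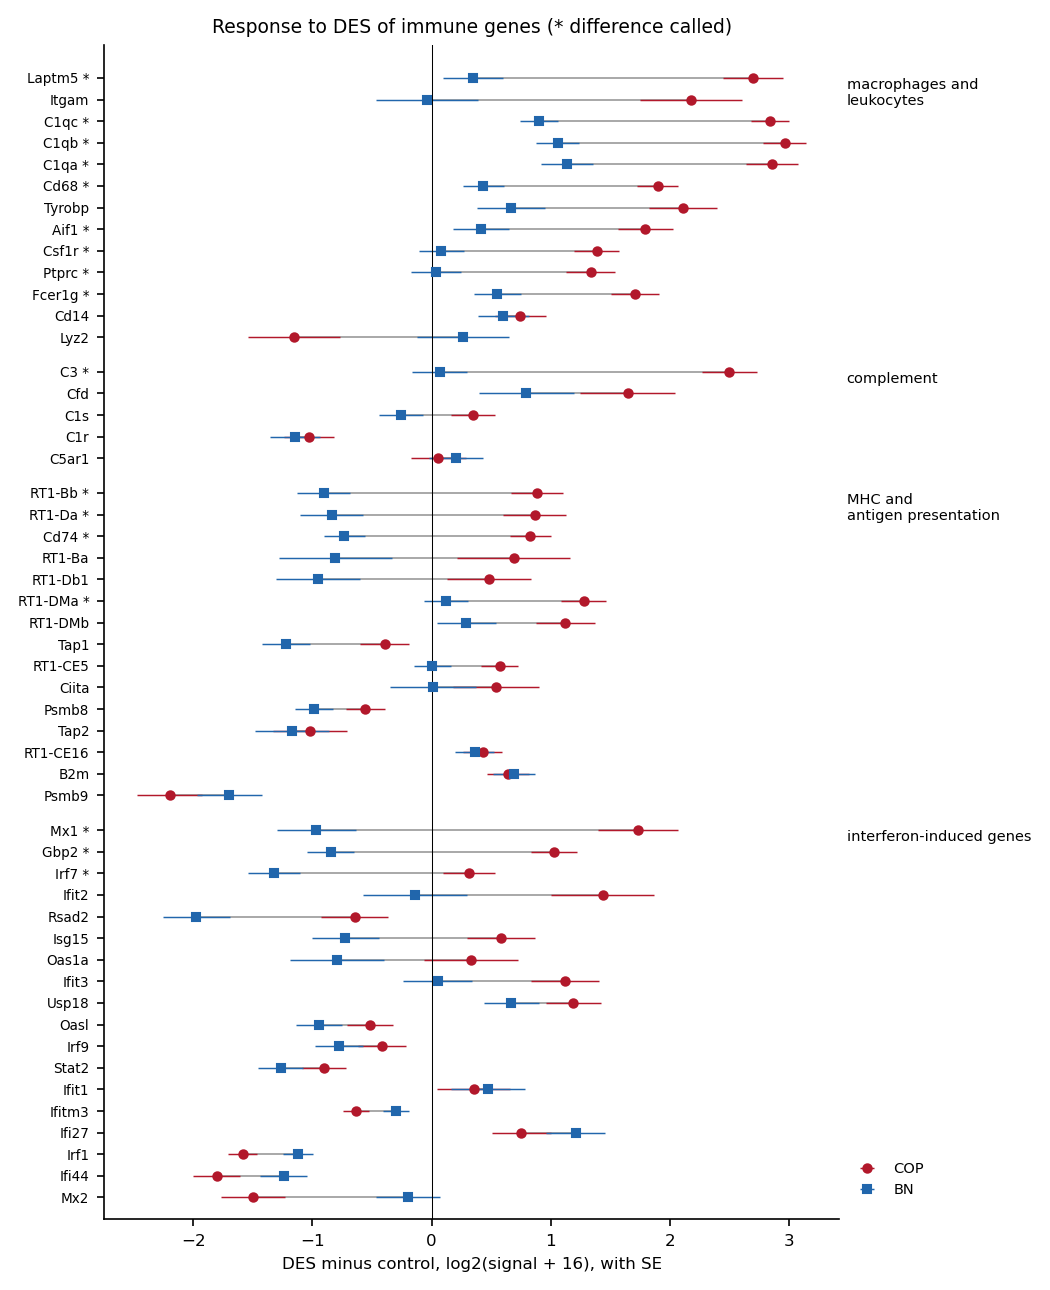
Change with DES in COP (red circles) and in BN (blue squares), on the log2(signal + 16) scale with standard errors, for the tested members of the macrophage, complement, MHC and interferon lists, with genes of more than 1 list drawn once. Stars mark called differences; macrophage genes lie right of 0 in COP except Lyz2, and class II genes such as Cd74 and RT1-Bb lie right of 0 in COP and left of it in BN.

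Genes called in both strains in opposite directions numbered 45 of 11478 (0.392%), 28 of them higher in COP and lower in BN (0.244%) and 17 the reverse (0.148%), and the difference was called for each. Besides Mx1 and Mki67, those with the largest difference were Olfm3, Sostdc1, Pltp and Prss48. Olfm3 encodes a secreted olfactomedin of the nervous system. It gave 469, 575, 513 and 994 in COP DES and 2405, 2973 and 2636 in COP control, against 2049, 2207, 5864 and 3894 in BN DES and 697, 707 and 949 in BN control. No group overlapped its partner, and BN DES arrays overlapped the COP controls. On the log2 scale the change was -2.10 in COP and 2.02 in BN, and the difference was -4.11 (SE 0.43, adjusted p = 7.88e-05).

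Sostdc1, a secreted antagonist of BMP and Wnt signals, gave 725, 665, 617 and 619 in COP DES and 5198, 2382 and 1492 in COP control, against 663, 529, 418 and 452 in BN DES and 292, 172 and 241 in BN control. The strains did not overlap in controls and overlapped after DES, and the difference was -3.08 (SE 0.42, adjusted p = 0.000513). Pltp, the phospholipid transfer protein of plasma lipoproteins, gave 757, 1429, 737 and 700 in COP DES and 198, 245 and 265 in COP control, against 338, 374, 321 and 342 in BN DES and 766, 400 and 631 in BN control. Its difference was 2.54 (SE 0.33, adjusted p = 0.000376). For Prss48, a serine protease, the changes were -1.68 in COP and 0.86 in BN, and the difference was -2.54 (SE 0.39, adjusted p = 0.00152). Timp1, an inhibitor of matrix metalloproteinases, also had opposite changes of smaller size, 0.35 in COP (adjusted p = 0.0134) and -0.77 in BN (adjusted p = 3.52e-05), with a difference of 1.12 (SE 0.15, adjusted p = 0.000376).

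Among the remaining large differences above 0, Sox7, a transcription factor of endothelial and endodermal cells, changed in COP. It gave 1264, 1187, 1270 and 1076 in COP DES and 198, 199 and 137 in COP control, against 161, 183, 167 and 164 in BN DES and 144, 127 and 171 in BN control. DES changed the log2 signal by 2.66 in COP and 0.18 in BN (adjusted p = 0.406), and the difference was 2.48 (SE 0.22, adjusted p = 1.92e-05). Pdgfrl, a secreted receptor-like protein, gave 731, 658, 879 and 699 in COP DES and 6.4, 48.6 and 7.9 in COP control, against 239, 316, 382 and 386 in BN DES and 65.7, 57.9 and 103 in BN control. Its difference was 2.60 (SE 0.44, adjusted p = 0.00313). Tcfl5, a basic helix-loop-helix factor known from testis, had a difference of 2.64 (SE 0.50, adjusted p = 0.0067). The differences with 1 and with 64 added in place of 16 were 3.50 and 1.78 for Pdgfrl and 3.54 and 1.76 for Tcfl5. Plaur, the urokinase receptor, had a difference of 2.75 (SE 0.70, adjusted p = 0.0381), which was 3.45 with 1 added and 2.03 with 64. Its signal on BN DES 3, at 15.3, lay far below the other BN DES arrays (118 to 180). The Plaur call was lost in 9 of the 14 omissions.

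Among the remaining large differences below 0 was Sema3e, a secreted semaphorin that repels growing vessels. It gave 64.3, 56.8, 29.2 and 73.8 in COP DES and 1808, 1764 and 2105 in COP control, against 86.6, 94.1, 195 and 138 in BN DES and 300, 348 and 290 in BN control. On the log2 scale its change was -4.77 in COP and -1.24 in BN, and the difference was -3.53 (SE 0.36, adjusted p = 6.86e-05). Dcn, the collagen-binding proteoglycan decorin, gave 348, 286, 281 and 719 in COP DES and 6400, 7510 and 8212 in COP control, against 584, 555, 2103 and 791 in BN DES and 1684, 2419 and 3017 in BN control. BN DES 3 alone overlapped the BN controls, and the difference was -2.81 (SE 0.55, adjusted p = 0.00767). Lum, the related proteoglycan lumican, had a difference of -2.43 (adjusted p = 0.0378), and Col1a2, a chain of type I collagen, had 1.20 (adjusted p = 0.0266). Their calls were lost in 9 and 6 of the 14 omissions. The fibroblast list thus held 1 call above and 2 below 0 in 9 genes, with a median of 0.04. The list of 19 matrix and protease genes held 3 calls above 0 (Timp1, Timp2 and Lox) and 1 below (Timp3), with a median of 0.22. Another Timp2 probe set had the opposite sign and was not called (-0.68, limma adjusted p = 0.402). Further probe sets of Timp3 (-0.09, -0.29 and -0.55) and of Lox (1.27) were not called either. Over all genes 2.62% were called above 0 and 2.26% below.

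Spock3, a testican proteoglycan, had a difference of -2.85 (SE 0.42, adjusted p = 0.00101), and Cbln2, a cerebellin that organizes synapses, one of -2.50 (SE 0.38, adjusted p = 0.00136). Acsm5, a mitochondrial acyl-CoA synthetase, gave 80.7, 69.8, 62.9 and 155 in COP DES and 379, 521 and 383 in COP control, against 72.9, 66.5, 93.5 and 112 in BN DES and 82.4, 84.0 and 36.8 in BN control, so that COP controls alone stood apart. Its difference was -2.42 (SE 0.43, adjusted p = 0.00408). Igfbp2, which binds insulin-like growth factors, gave 317, 370, 315 and 366 in COP DES and 1583, 1185 and 1398 in COP control, against 504, 423, 656 and 651 in BN DES and 625, 513 and 519 in BN control. The log2 change with DES was -1.97 in COP and 0.00 in BN, and the difference was -1.96 (SE 0.23, adjusted p = 0.000153). Kdr, a receptor for vascular endothelial growth factor, was higher with DES in BN by 0.93 and not called in COP (0.03, adjusted p = 0.877), with a difference of -0.90 (SE 0.19, adjusted p = 0.0136) that was not called without BN control 3 and BN DES 3 (adjusted p = 0.0591). It was the 1 call among 9 endothelial genes, against 2.26% of all genes called below 0.

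Rflna, a filamin regulator, had a difference of -2.57 (adjusted p = 0.0255) with 6 of the 14 omissions losing the call, and Gadl1, a decarboxylase of the carnosine pathway, one of -2.49 (adjusted p = 0.0175) lost without BN control 2 (adjusted p = 0.0508). With 1 and with 64 added in place of 16, the differences were -3.42 and -1.81 for Rflna and -3.2 and -1.74 for Gadl1. They were -3.90 and -1.82 for Spock3 and -3.13 and -1.63 for Cbln2, whose COP DES signals lay between 4.6 and 37.3. Esr1, the gene of estrogen receptor alpha, had low signals, with 73.3, 68.5, 22.5 and 37.4 in COP DES and 136, 98.1 and 53.3 in COP control, against 68.5, 92.1, 25.2 and 66.8 in BN DES and 76.9, 132 and 5.1 in BN control. All groups overlapped, and its difference was -0.93 (95% interval -2.61 to 0.74, adjusted p = 0.613). With 1 and with 64 added the Esr1 difference was -1.51 and -0.48. Meg3, a noncoding RNA with low expression in human pituitary tumors, had 1.66 (adjusted p = 0.0206), with higher controls in BN than in COP, and lost its call in 4 omissions. The rest of the named genes lay nearer the threshold. Scn9a and Lox lost their calls in 3 omissions each, Ldha in 2, Pcsk1n in 1, Nefl in 4, Ier2 in 5, Vgf and Timp2 in 7, Chrd and Timp3 in 8, Nrip1 in 9, Chga and Serpine2 in 10 and Nr3c1 in 12, with adjusted p up to 0.119 (Nr3c1). Altogether 44 of the 72 named genes called kept the call whichever of the 14 arrays was left out.

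A difference in response may go with a strain difference before DES, after it or both. COP and BN differed in 574 genes in controls (5%) and in 2667 after DES (23.2%, with 11.2% higher and 12% lower in COP). Over probe sets the shares were 4.81% in controls and 20.2% after DES. Of the 560 genes with a called difference in response, 409 differed between the strains after DES and not in controls, 74 in controls and not after DES, 63 in both and 14 in neither. Vip, Drd4, Lhb and Tshb belong to the 409, and Cartpt, C3, Sostdc1 and Acsm5 to the 74. These comparisons use the same arrays as the difference itself and are a description of where it lies.

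The ACI arrays took no part in these calls. For 516 of the 560 genes (92.1%) the change with DES in ACI was nearer to that of COP than to that of BN, against 8010 of all 11478 genes tested (69.8%). The ACI change lay beyond that of COP in 338 of the 560, between the 2 strains in 217 and beyond that of BN in 5. Over all 11478 genes these counts were 5883, 3337 and 2258. The share nearer to COP was 90.7% of the genes with a difference above 0 and 93.8% of those below. Of the 12 largest differences of each sign, 21 were nearer to COP. The exceptions were Vip, with 2296, 1055, 1404 and 1979 in ACI DES and 53.7, 42.1 and 110 in ACI control (log2 change 4.35), C3 and Spock3. ACI and COP are related strains.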

How the data were processed

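The authors deposited linear intensity signals per probe set for 21 Affymetrix Rat Genome 230 2.0 arrays, on which the 2% trimmed mean, computed here, was 500 on every array. The summarization software is not given in the sources used here. Replicates were single arrays, and array number limits precision. The 14 COP and BN arrays were used after log2(signal + 16), without further scaling because array medians of log2 signal differed by 0.225 at most. The 57 control probe sets were left out. A 4-group model was fitted to 21052 probe sets with limma 3.58.1 in R 4.3.3 (lmFit, eBayes with a mean-variance trend, 16.0 total degrees of freedom, two-sided p, Benjamini-Hochberg over all probe sets), after a check on simulated data. Of 20826 probe sets with 1 symbol, 20764 were matched by ID to RefSeq. The members, the 40 gene lists (546 genes, 428 tested) and the rule were chosen with earlier results of these data known. The rule named, among called genes with a group mean of 200 or more, the 12 largest differences of each sign and up to 4 genes per list with the smallest adjusted p, plus the 6 largest opposite responses and the hormone genes, Esr1, Myc, Pvt1 and A1bg whether called or not. No pair of arrays shared over 0.254% of values. Alternatives were another constant, filter, scaling, variance prior or set of arrays, replicate blocks, other probe sets, and omission of each array. One of them, the omission of BN control 3 and BN DES 3, was chosen after seeing the data.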

Additional observations from a re-analysis of the deposited data

Results flagged for a closer look

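The count that summarizes the comparison, 781 probe sets whose response to DES differed between COP and BN by the test of that difference, is given here as the main difference between groups. Among the named genes, each group of 4 DES arrays was checked for 1 array far from the other 3 (by Dixon's criterion on the gap over the group's range). Of 160 such groups, 10 held one, and chance alone gives about 1 in 20. In COP DES the arrays set apart were replicate 2 for Pltp (1429, others 700 to 757), Prss48 (39.6, others 58.3 to 61.0) and Cbln2 (37.3, others at most 20), replicate 3 for RT1-Bb (973, others 1641 to 1802) and replicate 1 for Myc (885, others 618 to 654). In BN DES they were replicate 3 for C3 (1048, others 1455 to 1494), Rflna (11.6, others 77.0 to 89.4) and Lox (379, others 240 to 248.5), replicate 1 for Tbx19 (520, others 336 to 358) and replicate 4 for Laptm5 (633, others 353 to 389).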

How the results depend on the processing

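The count of probe sets with a called difference in response, 781 in limma, was 1439 with the set of numbers (1 and 2 against 3 and 4) as a block, 1431 on arrays numbered 1 and 2 alone, 333 on arrays numbered 3 and 4 alone, where each strain has 1 control array that is assumed to vary like the others, 489 without BN control 3 and BN DES 3, and 455 to 913 with each array left out in turn. DES against control was called for 5357 probe sets in COP on numbers 3 and 4 alone, against 8712, and for 7287 to 9282 in COP and 4989 to 7028 in BN over the omissions. COP against BN in controls gave 2055 on numbers 1 and 2 and 340 on numbers 3 and 4, against 1013, and 566 to 1151 over the omissions. After DES the omissions gave 3506 to 4262. The replicate number as a block gave 1153, which held 779 of the 781. No label says what a number shares, and pairing was not taken as given because the correlation of deviations was not over 0.1 in every pair: it lay between -0.05 and 0.30 over 19 pairs of equal number, 15 of them over 0.1, and 9 of 14 arrays correlated best with their own number, a hint of pairing from the data. Centring each array on its median put 51.3% of the called probe sets of COP and 51.7% of those of BN on the higher side, against 41.2% and 41.8%. Of the 72 named genes called, 27 kept the call in every setting and none changed direction. The call was lost for 39 on numbers 3 and 4 alone, 16 without the variance trend, 15 without BN control 3 and BN DES 3, and 2 to 23 over the omissions. The signs that turned belonged to genes not called: Prl was 0.0423 on numbers 1 and 2 and -0.279 to 0.0335 over the omissions, Myc was 0.51 on numbers 3 and 4, and Pvt1 was -0.00991 with 64 added, -0.146 on numbers 3 and 4 and -0.259 to 0.33 over the omissions. The cause of these shifts was not tested.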
